A study of Mus musculus with 6 samples.

Results

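Cytochrome P450 genes other than Cyp2b10 were followed in the submandibular gland of mice whose ovaries had been removed. They were chosen by name, with earlier results of these data known. Cyp2b10, which changed far more and is given below for comparison, was left out. Every other gene was taken whose symbol in the platform annotation starts with Cyp, a family number and a subfamily letter. This gave 97 of the 19505 genes measured, each with 1 probe set. Por, which the choice adds by name, and the aromatase gene Cyp19a1 are not analysed here. The OVX group was 3 BALB/c females that lost both ovaries at 6 weeks of age, and the Cont group was 3 BALB/c females that had sham surgery at that age. Both groups were killed 8 weeks later, at 14 weeks of age, and each mouse gave 1 Clariom S mouse array made from whole-gland RNA. Removing the ovaries takes away all ovarian hormones at once, and whole-gland RNA mixes acinar, duct, myoepithelial, stromal and immune cells.

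P450 enzymes are haem proteins that insert an oxygen atom into their substrate. Those of the endoplasmic reticulum take their electrons from P450 oxidoreductase, the product of Por, and those of mitochondria from ferredoxin. Some make or break down sterols, steroid hormones, vitamin D, retinoic acid and eicosanoids, and others, mostly of the Cyp1, Cyp2 and Cyp3 families, oxidize drugs and foreign chemicals. In mice several liver members of the Cyp2, Cyp3 and Cyp4 families differ between the sexes, and the female submandibular gland differs from the male gland in its granular convoluted tubules, which make kallikreins and growth factors.

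The deposited values are log2 intensities, so a difference of 1 is a 2-fold difference. Array medians lay between 5.20 and 5.22 and the lower quartile of an array between 3.77 and 3.86. These values follow the authors' joint normalization of all arrays, so they cannot show whether an array stood apart. The files hold no detection calls, so the mean of the arrays' lower quartiles, 3.82, was used to separate brighter from dim probe sets. Intensities of different probe sets depend on their probes and do not rank transcripts. Of 12 acinar markers of the labelled gland, 0 lay below the lower quartile. Cell type markers differed between the groups. Their sums are given here as linear intensity divided by 1000. The brightest probe sets of a list weigh most in its sum, so a sum need not follow most of its markers. All 9 granular convoluted tubule markers measured rose (47.1 to 47.9 in OVX glands, against 9.93 to 17.0 in Cont glands). Of the myoepithelial and smooth muscle markers 7 of 10 rose (2.91 to 3.39 in OVX glands and 1.00 to 1.14 in Cont glands), as did 4 of 8 fibroblast markers (1.83 to 2.06 in OVX glands and 1.10 to 1.30 in Cont glands) and 4 of 11 duct markers (10.1 to 10.7 in OVX glands and 10.4 to 10.9 in Cont glands). Of 12 acinar markers 1 rose and 3 fell (15.6 to 16.7 in OVX glands and 18.9 to 20.7 in Cont glands). The median log2 change, in which each marker counts equally, was 0.43 for duct, 0.62 for fibroblast and −0.45 for acinar markers. The duct sums overlapped, but 6 duct markers had changes above 0 and 5 below. None of the 10 adipocyte, 9 lymph node, 6 macrophage, 7 endothelial and 7 skeletal muscle markers passed the test. The summed adipocyte markers nevertheless lay apart, at 0.330 to 0.496 in OVX glands and 0.530 to 0.849 in Cont glands. Of 11 hepatocyte markers 1 rose, Ttr with a log2 change of 1.37, but 8 had values below 0 and the median was −0.13. Their sums were 0.380 to 0.415 in OVX glands and 0.286 to 0.351 in Cont glands. The 1 sublingual gland marker measured fell, and the 1 erythrocyte marker measured did not pass. No marker of tubules, fibroblasts or myoepithelial and smooth muscle cells lay below the lower quartile, and 1 of the adipocyte and 1 of the hepatocyte markers did. The part of these differences in the results for P450 genes was not tested, and in RNA from whole glands fewer cells of a type and less RNA per cell cannot be told apart.

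Many P450 genes were dim on these arrays. By their mean over all arrays 47 of 97 lay above the lower quartile and 50 below it, and of all 19505 genes 14892 lay above and 4613 below. On all 6 arrays 31 P450 genes lay above the lower quartile and 38 below, and the other 28 crossed it. The members just below the divide were Cyp2d12 and Cyp1a1, both with a mean of 3.75, and those just above it were Cyp4f14 at 3.85 and Cyp26c1 at 3.88. All 9 Cyp3a genes, whose liver enzymes oxidize drugs and steroids, lay below it on every array. So did 12 of 14 Cyp2c genes, 6 of 7 Cyp2j genes and 6 of 8 Cyp4a genes by their means. By contrast 7 of 9 Cyp2d genes and 8 of 10 Cyp4f genes lay above it. A change in a probe set near the array background is understated on the log2 scale.

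Few P450 genes differed between OVX and Cont glands. With limma and Benjamini-Hochberg adjustment over all named genes, 3 of 97 had an adjusted p under 0.05: Cyp1b1 and Cyp39a1 were higher in OVX glands and Cyp27a1 was lower. That is 3.09% of the P450 genes, with Cyp2b10 left out, against 3.63% of all genes. Of all genes 2.57% were higher and 1.07% lower in OVX glands. By their means all 3 lay above the lower quartile, where 6.38% of P450 genes and 4.45% of all genes were called. Cyp1b1 did so only through its OVX arrays, so the divide in part follows the change and nothing is read from this split. None of the 50 dim P450 genes passed, against 1.02% of all dim genes. Of these 50, 6 (12%) had an unadjusted p under 0.05, against 10.2% of all dim genes. Over all 97 P450 genes, bright and dim, the 3.09% called lay near the 3.63% of all genes. By the study's criterion of a 1.5-fold difference with an unadjusted p of at most 0.05, 5 P450 genes differed (all genes: 4.99%), with Cyp2b9 and Cyp2b23 higher in OVX glands beside the 3 named above. An unadjusted p under 0.05 was reached by 6 P450 genes that were higher and 9 that were lower in OVX glands, in all 15 of 97 (all genes: 15.8%). The OVX arrays all lay above the Cont arrays for 7 P450 genes and all below them for 11, or 18.6% of P450 genes, against 21.4% of all genes. The 3 calls rest on limma's pooling of the spread over genes. With the per-gene test that the study's methods name, 0 of 97 passed after adjustment and 10 had an unadjusted p under 0.05.

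**Figure D1:**
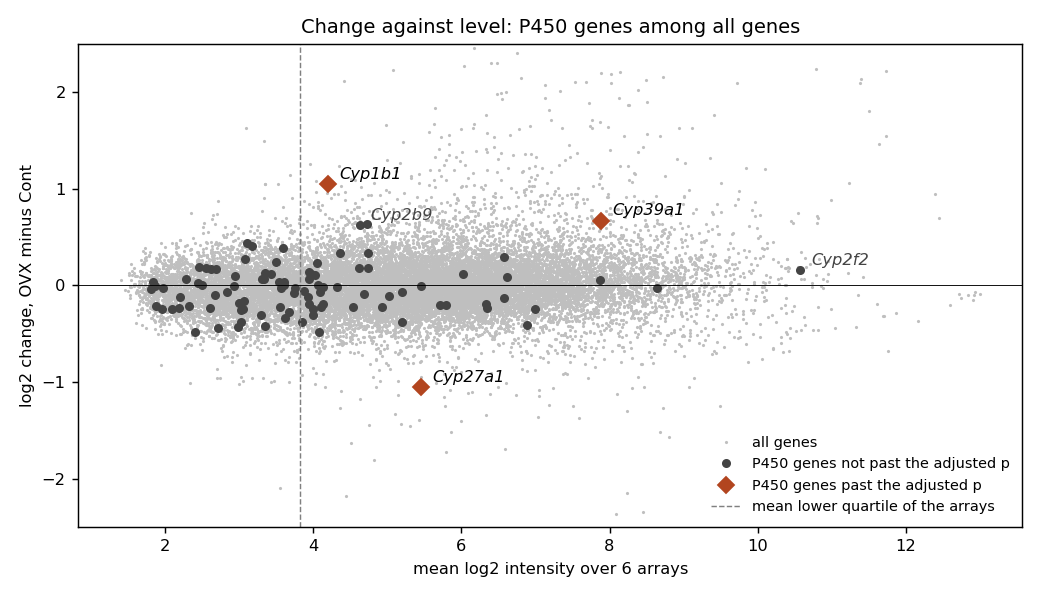
Log2 change, OVX minus Cont, against the mean log2 intensity over 6 arrays for all genes (grey) and the 97 P450 genes (dark points, or red diamonds where the adjusted p was under 0.05). The dashed line is the mean lower quartile, 3.82, and 23 genes beyond ±2.5 are not drawn. The 3 called P450 genes lie to the right of the line and most others lie close to 0.

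The remaining differences were small and ran in both directions. Over the 97 P450 genes the log2 change had a median of −0.03, against −0.02 over all genes, and ran from −1.06 to 1.05. It was above 0 for 40 and below 0 for 57 (all genes: 9150 and 10355). Its median size without sign was 0.18, against 0.16 over all genes. The 95% interval of the change stayed within 2-fold either way for 93 of 97 and within 1.5-fold for 56. Of all 19505 genes it did so for 18613 and 12575. All 50 dim P450 genes were among the 93, and changes near the background are understated. The 4 P450 genes whose intervals reached past 2-fold were Cyp27a1, Cyp1b1, Cyp2b23 and Cyp2c55. The last, named after its values were seen, had a change of −0.48 with an interval from −1.03 to 0.06.

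**Figure D2:**
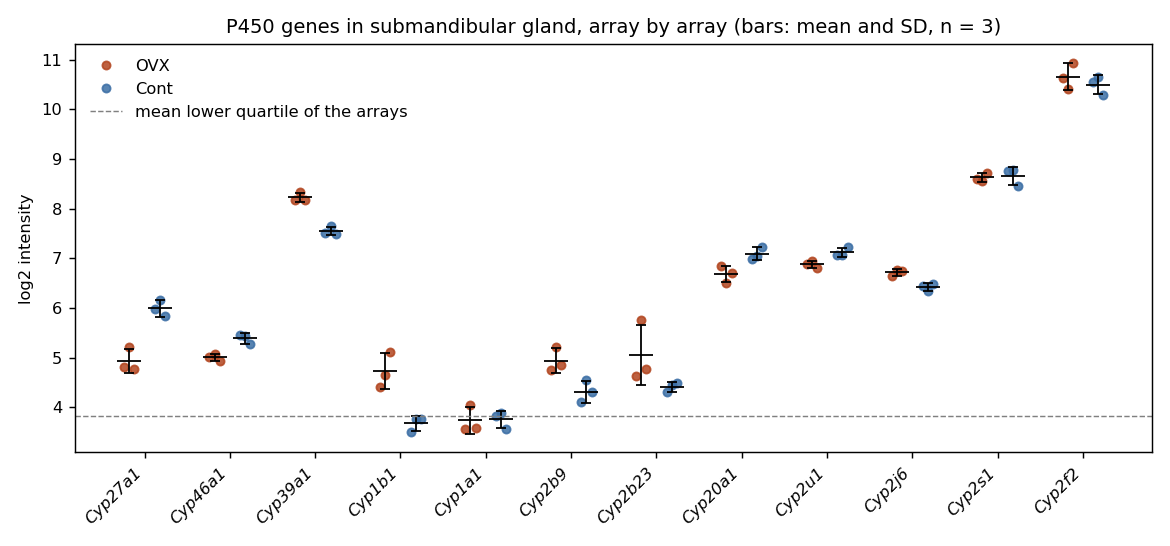
Log2 intensity of 12 P450 genes on each array, with OVX arrays (red) left of Cont arrays (blue) and bars for the mean and SD (n = 3). OVX and Cont points are separate for Cyp27a1, Cyp46a1, Cyp39a1, Cyp1b1, Cyp2b9, Cyp2b23, Cyp20a1, Cyp2u1 and Cyp2j6, and they overlap for Cyp1a1, Cyp2s1 and Cyp2f2.

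Among the 6 genes of cholesterol and bile acid metabolism 1 fell, 1 rose and 4 did not pass the test. Of all genes 3.63% were called. Cyp27a1 encodes the mitochondrial enzyme that hydroxylates the sterol side chain and opens the alternative route to bile acids. Its intensity was 4.80, 5.22 and 4.78 in OVX glands, against 5.97, 6.16 and 5.83 in Cont glands. Every OVX array lay below every Cont array. The mean was 4.93 ± 0.25 in OVX glands and 5.99 ± 0.16 in Cont glands (SD, n = 3 each), a log2 change of −1.06 (SE 0.16, limma adjusted p = 0.00370), or 2.08-fold lower in OVX glands. The call held with any array left out, at log2 changes of −1.20 to −0.97 and adjusted p up to 0.0241. The acinar and adipocyte marker sums given above were lower in OVX glands too, and their part in this result was not tested. The summed macrophage markers, 0.350 to 0.530 in OVX glands and 0.312 to 0.435 in Cont glands, overlapped between the groups. All 6 had changes above 0, with a median of 0.19, and none passed the test. Their part was not tested either.

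Cyp39a1 encodes the enzyme that adds the next hydroxyl group to the brain-type oxysterol made by Cyp46a1. Its intensity was 8.17, 8.34 and 8.16 in OVX glands, against 7.52, 7.65 and 7.50 in Cont glands. The groups did not overlap, and the arrays of each group lay close together. The log2 change was 0.67 (SE 0.13, limma adjusted p = 0.0171), or 1.59-fold higher in OVX glands. When arrays were left out in turn, the call held only without Cont replicate 2 (adjusted p = 0.0380). The adjusted p was 0.0631, 0.0667 and 0.0543 without OVX replicate 1, 2 and 3, and 0.0599 and 0.0524 without Cont replicate 1 and 3, with log2 changes of 0.61 to 0.72 throughout. The summed granular convoluted tubule, fibroblast, and myoepithelial and smooth muscle markers given above were all higher in OVX glands. Of the duct markers 4 of 11 rose too, although the duct sums overlapped. The part of these markers was not tested.

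Cyp46a1, the cholesterol hydroxylase best known from neurons, had intensities of 5.01, 5.07 and 4.93 in OVX glands and 5.46, 5.43 and 5.27 in Cont glands. All OVX arrays lay below the Cont arrays, but the change of −0.38 (SE 0.13) did not pass (limma adjusted p = 0.171). Cyp7b1, which hydroxylates oxysterols, had a change of −0.31 with an interval from −0.93 to 0.31, and its direction rests on OVX replicate 2, without which it was 0.02. Cyp7a1 and Cyp8b1, the rate-limiting enzyme of the classical bile acid route and the enzyme that leads to cholic acid, were below the lower quartile by their means. Their changes were −0.28 and −0.06. Over the 6 genes the median change was −0.29.

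The sequence next to the start of Cyp27a1 is shown because this was the P450 gene that passed the test with a fall. It is the stretch of 250 bases before the start in RefSeq (build GRCm38.p6), chr1:74713285-74713534 on the plus strand, and its capitals mark the GC box GGGCGG read on the opposite strand, 28 to 23 bases before the start.
Cyp27a1: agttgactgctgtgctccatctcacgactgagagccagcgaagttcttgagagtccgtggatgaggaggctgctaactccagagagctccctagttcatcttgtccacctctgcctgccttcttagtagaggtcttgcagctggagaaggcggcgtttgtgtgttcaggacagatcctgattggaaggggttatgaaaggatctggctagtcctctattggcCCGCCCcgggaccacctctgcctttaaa
The 32851 RefSeq windows of this kind cover 27025 genes, so some genes enter them repeatedly. For the P450 genes only the first listed window was taken, and 71 of the 97 were matched. On either strand the GC box was found in 32.7% of all 32851 windows and in 21.1% of those 71, and the TATA box TATAAA in 12.4% of all windows and 36.6% of the 71. Such matches describe the letters and not a bound site.

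Among the 3 Cyp1 genes, classical targets of the aryl hydrocarbon receptor, Cyp1b1 rose and the others did not pass the test. The share called of all genes was 3.63%. Cyp1b1 oxidizes polycyclic hydrocarbons, and the human enzyme also hydroxylates oestradiol. Its intensity was 4.40, 4.66 and 5.11 in OVX glands, against 3.49, 3.77 and 3.76 in Cont glands. The 3 OVX arrays lay above the lower quartile and the 3 Cont arrays below it. The log2 change was 1.05 (SE 0.19, limma adjusted p = 0.00918), which is 2.07-fold, and the change is at least 1.85-fold higher in OVX glands if the Cont arrays are set to their lower quartiles. The call held with any array left out, with adjusted p up to 0.0372. As for Cyp39a1, the summed granular convoluted tubule, fibroblast, and myoepithelial and smooth muscle markers were also higher in OVX glands, and 4 of 11 duct markers rose. The part of these markers was not tested.

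Cyp1a1, the usual readout of the same receptor, had 3.57, 4.05 and 3.59 in OVX glands, against 3.82, 3.89 and 3.57 in Cont glands. Its groups overlapped near the lower quartile, with a log2 change of −0.02 and an interval from −0.39 to 0.35. Cyp1a2, a liver enzyme, was below the lower quartile on every array, with a change of −0.18. Ahr, the receptor itself, had a change of 0.40 that did not pass (limma adjusted p = 0.269). It was named after its values were seen.

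The window before the start of Cyp1b1 is shown because it holds the core letters GCGTG of the aryl hydrocarbon receptor motif. It is chr17:79715062-79715311 on the minus strand in RefSeq (build GRCm38.p6), written 5′ to 3′ along the gene. The capitals mark, on the opposite strand, a GC box 84 to 79 bases and the receptor core 76 to 72 bases before the start.
Cyp1b1: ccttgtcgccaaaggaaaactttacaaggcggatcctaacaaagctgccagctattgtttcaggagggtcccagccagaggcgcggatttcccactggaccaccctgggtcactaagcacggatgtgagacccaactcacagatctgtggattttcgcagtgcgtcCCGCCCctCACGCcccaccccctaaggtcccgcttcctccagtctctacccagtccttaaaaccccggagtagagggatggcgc
The receptor core was found on either strand in 28.2% of all windows and in 18.3% of the 71 P450 windows.

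The 38 genes grouped as Cyp2 genes of drug and lipid oxidation held no call. Their changes ran from −0.48 to 0.64 with a median of −0.03, and 14 were above 0 and 24 below. The highest changes among them were those of Cyp2b9 and Cyp2b23, of the same subfamily as Cyp2b10. Cyp2b9, a steroid hydroxylase found mostly in female liver in mice, had 4.74, 5.22 and 4.86 in OVX glands, against 4.10, 4.54 and 4.31 in Cont glands. The groups did not overlap, and the change of 0.62 (SE 0.17) missed the threshold (limma adjusted p = 0.0770). It passed when the dimmest 30% of probe sets were dropped (adjusted p = 0.0425). With each array left out in turn it passed in 0 of 6 fits, with limma adjusted p up to 0.218 (without OVX replicate 2). Cyp2b23 had 4.63, 5.75 and 4.77 in OVX glands, against 4.31, 4.44 and 4.49 in Cont glands. Its change of 0.64 (SE 0.25, limma adjusted p = 0.226) came mainly from OVX replicate 2, and it was 0.29 without that array. Cyp2b13 and Cyp2b19, the last a keratinocyte enzyme, had changes of 0.18 and 0.24 with overlapping groups. For comparison, Cyp2b10 itself had 9.11, 9.86 and 9.56 in OVX glands, against 4.58, 4.45 and 3.72 in Cont glands, a change of 5.26.

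The windows before the starts of Cyp2b9 and Cyp2b13 are shown because these neighbours are nearly the same in sequence. They are chr7:26173159-26173408 and chr7:26061245-26061494, both on the plus strand in RefSeq (build GRCm38.p6). They were identical at 248 of 250 bases (99.2%), and the capitals mark the bases that differ, at 203 and 147 bases before the start.
Cyp2b9: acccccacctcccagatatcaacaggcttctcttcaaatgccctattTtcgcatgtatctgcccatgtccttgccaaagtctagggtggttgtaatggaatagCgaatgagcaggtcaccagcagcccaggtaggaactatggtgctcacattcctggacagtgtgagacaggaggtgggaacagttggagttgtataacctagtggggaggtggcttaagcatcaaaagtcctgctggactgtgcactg
Cyp2b13: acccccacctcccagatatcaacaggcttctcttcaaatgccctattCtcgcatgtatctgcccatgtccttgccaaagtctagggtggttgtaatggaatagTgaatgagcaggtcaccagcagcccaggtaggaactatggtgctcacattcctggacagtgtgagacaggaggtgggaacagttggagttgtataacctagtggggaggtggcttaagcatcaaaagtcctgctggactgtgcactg
Both hold the nuclear receptor motif AGGTCA, 138 to 133 bases before the start, which was found on either strand in 14.0% of all windows and 21.1% of the 71 P450 windows. The window of Cyp2b9 was 71.0% identical to that of Cyp2b10 and 65.1% to that of Cyp2b19. The changes of Cyp2b9 and Cyp2b13 differed by 0.44 (two-sided exact permutation test over the 6 arrays, p = 0.2, where the smallest possible is 0.1). Whether the probes of these and other close relatives tell their transcripts apart was not tested.

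The Cyp2b genes lie in a cluster on mouse chromosome 7 with Cyp2a, Cyp2f, Cyp2g, Cyp2s and Cyp2t genes. Of the 12 cluster genes measured besides Cyp2b10, none had an adjusted p under 0.05. In order along the chromosome the change was −0.03 for Cyp2s1 and, past Cyp2b10, 0.18 for Cyp2b13, 0.62 for Cyp2b9, −0.09 for Cyp2a4 and 0.64 for Cyp2b23. It went on with 0.24 for Cyp2b19, 0.06 for the olfactory gene Cyp2g1, −0.01 for the coumarin hydroxylase gene Cyp2a5, −0.43 for Cyp2a22 and −0.19 for Cyp2a12. At the far end it was 0.16 for Cyp2f2 and 0.44 for Cyp2t4. All 4 Cyp2b values were above 0, with a median of 0.43, and all 4 Cyp2a values were below 0. Of all genes 9150 were above 0 and 10355 below. Among these Cyp2b and Cyp2a genes the 95% interval excluded 0 only for Cyp2b9, Cyp2b23 and Cyp2a22.

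**Figure D3:**
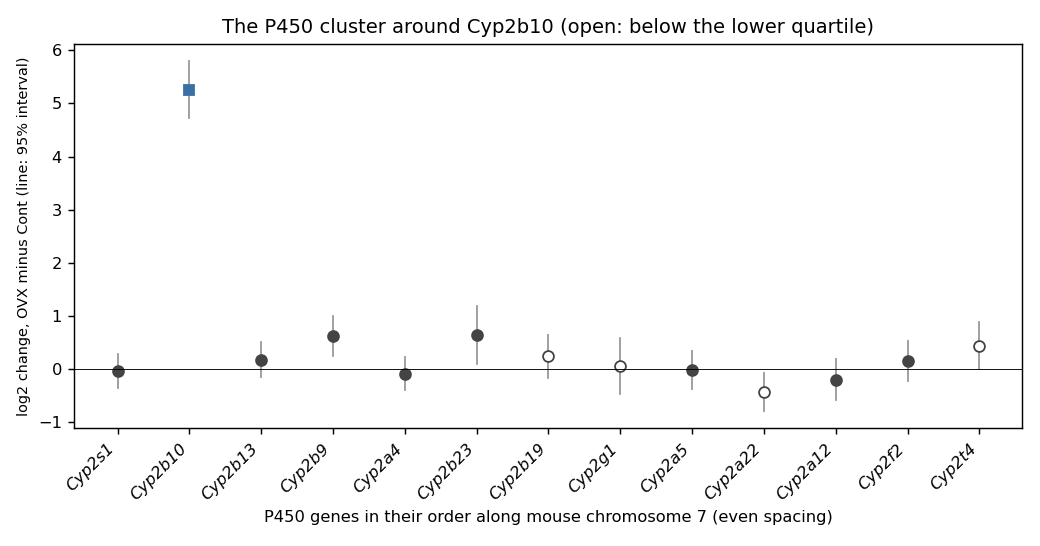
Log2 change, OVX minus Cont, with its 95% interval for 13 P450 genes in their order along mouse chromosome 7, evenly spaced. Cyp2b10 (square) stands at 5.26 and the 12 others (circles, open where the mean lay below the lower quartile) lie between −0.43 and 0.64.

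Probe sets with the highest mean intensities were examined because a change is least compressed there. Of the 10 highest, only Cyp39a1 passed the test. Cyp2f2, which activates naphthalene in the club cells of mouse lung, had 10.62, 10.40 and 10.94 in OVX glands, against 10.55, 10.65 and 10.28 in Cont glands. Its groups overlapped, and the interval of the change, −0.22 to 0.53, left out a 1.5-fold difference. Cyp2s1, an epithelial P450 outside the liver, had a change of −0.03, and Cyp2d13 of 0.05. Cyp2u1, a fatty acid hydroxylase, had 6.89, 6.94 and 6.80 in OVX glands and 7.07, 7.06 and 7.23 in Cont glands. Its OVX arrays all lay lower, yet the change of −0.24 did not pass (limma adjusted p = 0.411).

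Cyp20a1, a P450 with no settled substrate, had 6.83, 6.51 and 6.70 in OVX glands, against 6.98, 7.04 and 7.23 in Cont glands. The groups did not overlap and the change was −0.41 (limma adjusted p = 0.186). Cyp2j6, of an epoxygenase subfamily, had 6.63, 6.77 and 6.74 in OVX glands and 6.44, 6.34 and 6.48 in Cont glands. All OVX arrays lay higher, with a change of 0.29 (limma adjusted p = 0.303). Cyp2d9, a testosterone hydroxylase typical of male mouse liver, had a change of −0.13, Cyp2d22 of −0.23 and Cyp4f13 of 0.09, each with overlapping groups.

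None of the 29 genes of fatty acid and eicosanoid oxidation passed the test, and their median change was −0.01. Cyp4f14, a fatty acid and leukotriene hydroxylase, had a change of −0.38 and its relative Cyp4f15 of 0.38, each without overlap of the groups and each with a limma adjusted p of 0.241. Cyp4a12a, which makes a vasoactive arachidonic acid product in male mouse kidney, was below the lower quartile on every array, with a change of −0.44 (limma adjusted p = 0.169). Of 14 Cyp2c genes, whose enzymes include arachidonic acid epoxygenases, 11 had values below 0 (all genes below the lower quartile: 2704 of 4613). The separate groups among them included Cyp2c50, at 3.20, 3.17 and 3.02 in OVX glands and 3.69, 3.52 and 3.45 in Cont glands, and Cyp2c39, a retinoic acid hydroxylase of mouse liver, at 2.28, 1.95 and 2.28 in OVX glands and 2.81, 2.35 and 2.79 in Cont glands. Both lay below the lower quartile on every array, and their changes of −0.42 and −0.48 did not pass (limma adjusted p = 0.142 and 0.177). The 9 Cyp3a genes ran from −0.25 to 0.27, with the highest value for Cyp3a44, which is typical of female mouse liver.

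**Figure D4:**
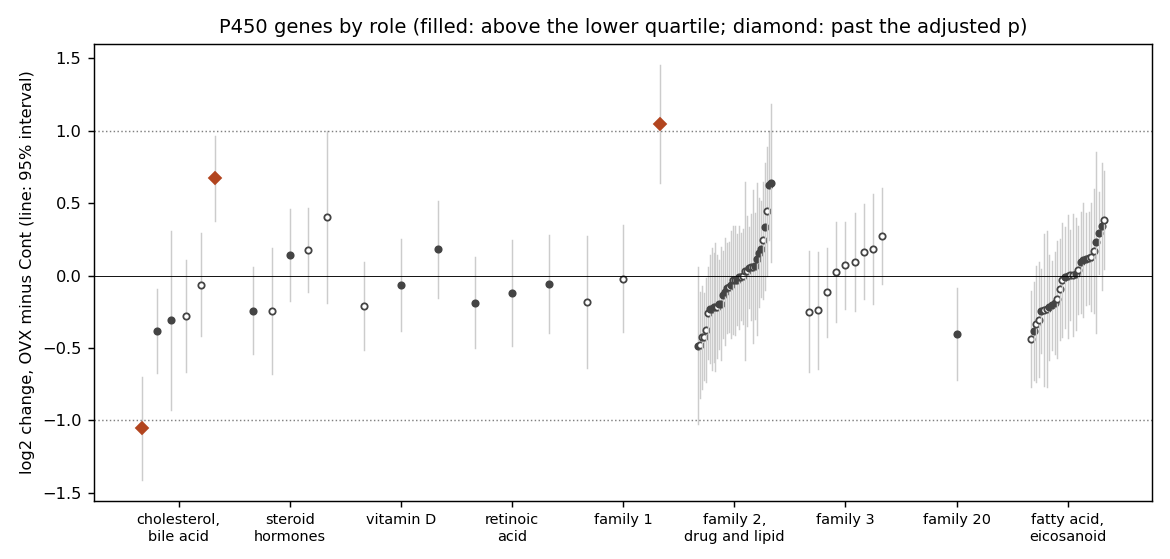
Log2 change, OVX minus Cont, with its 95% interval for the 97 P450 genes grouped by role. Filled points lay above the lower quartile by their mean, open points below it, and diamonds had an adjusted p under 0.05. Dotted lines mark a 2-fold difference, which the points of Cyp27a1 and Cyp1b1 pass.

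None of the 5 genes of steroid hormone synthesis passed the test, and none lay above the lower quartile on every array. Cyp11a1, which cuts the side chain of cholesterol at the start of the pathway, had 2.69, 2.55 and 2.66 in OVX glands, against 2.52, 2.49 and 2.35 in Cont glands. These dim groups did not overlap, with a change of 0.18 (limma adjusted p = 0.569). Cyp17a1, the hydroxylase and lyase on the way to androgens, had a change of 0.40 with an interval from −0.19 to 1.00. Cyp21a1, the adrenal steroid hydroxylase, had a change of 0.14. Cyp11b1 and Cyp11b2, which finish the synthesis of corticosterone and aldosterone, each had −0.24. The value of Cyp11b2 was −0.49 without OVX replicate 2 and −0.08 without OVX replicate 3.

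The 3 vitamin D genes and the 3 genes of retinoic acid breakdown did not pass either, and the 95% interval of each of the 6 stayed within 1.5-fold. Cyp24a1, which inactivates calcitriol, had 5.14, 5.30 and 5.04 in OVX glands, against 5.04, 5.32 and 5.32 in Cont glands, a change of −0.07 with overlapping groups. Cyp27b1, which makes calcitriol, had a change of 0.18, and the liver vitamin D hydroxylase Cyp2r1 had −0.21 and lay below the lower quartile on every array. Cyp26a1, Cyp26b1 and Cyp26c1, which clear retinoic acid, lay around the lower quartile with changes of −0.12, −0.19 and −0.06.

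Partners of the P450 enzymes were compared through lists of other genes. None of the 8 microsomal redox partners and none of the 3 measured genes of mitochondrial electron transfer and cholesterol delivery passed the test. In the microsomal list Cyb5b, whose cytochrome b5 is known from the outer mitochondrial membrane although the list holds it with its microsomal relative, had a change of 0.34 and the cytochrome b5 reductase gene Cyb5r2 of −0.33 (limma adjusted p = 0.345 and 0.278). Star, which delivers cholesterol to mitochondria, had 0.20, and Tspo, a protein of the outer mitochondrial membrane, had 0.04. Of 12 genes of haem synthesis and breakdown 1 rose and none fell (called of all genes: 3.63%). This was Alas1, the first and rate-limiting step of haem synthesis outside red cells, at 8.43, 8.35 and 8.36 in OVX glands, against 7.55, 7.55 and 8.03 in Cont glands. The groups did not overlap, though Cont replicate 3 lay nearer to the OVX arrays. The change was 0.67 (limma adjusted p = 0.0424). It passed only without Cont replicate 3 when arrays were left out (0.83, adjusted p = 0.0128), with adjusted p of 0.107 to 0.149 without any of the others, and did not pass after quantile normalization (adjusted p = 0.0726).

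Of 17 genes of retinoid synthesis, binding and receptors 1 was higher and 2 were lower in OVX glands, and 14 did not pass, among them all binding protein and receptor genes of the list (called of all genes: 3.63%). The median change was −0.05. Some of the marker sums given above lay apart between the groups, in both directions, and others overlapped. Their part was not tested. Aldh1a1, which makes retinoic acid, had 7.30, 7.20 and 7.57 in OVX glands, against 6.62, 6.18 and 6.66 in Cont glands, a change of 0.87 (limma adjusted p = 0.0160). Adh1, which can oxidize retinol, had 7.58, 7.35 and 7.69 in OVX glands, against 8.35, 8.42 and 8.13 in Cont glands, a change of −0.76 (limma adjusted p = 0.0162). Dhrs3, which turns retinal back to retinol, had 7.36, 7.55 and 7.87 in OVX glands, against 8.32, 8.18 and 8.20 in Cont glands, a change of −0.64 (limma adjusted p = 0.0484). The groups did not overlap for any of the 3 genes. Aldh1a1 lost its call without OVX replicate 1 or 3 or Cont replicate 2 (adjusted p = 0.0546, 0.0762 and 0.0588). Adh1 lost it without OVX replicate 1 or 2 or Cont replicate 1 or 2 (0.0605, 0.0667, 0.0565 and 0.0672), and Dhrs3 without any array but OVX replicate 3 (0.0941 to 0.195). The related list members Aldh1a2 and Aldh1a3, named after their values were seen, had changes of −0.64 and 0.07. Neither passed (limma adjusted p = 0.0829 and 0.863). Aldh1a2 lay below the lower quartile on every array, and its groups did not overlap.

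Of 17 receptors and partners that control P450 genes 1 fell and none rose (called of all genes: 3.63%). Rxrg, a retinoid X receptor that pairs with many nuclear receptors, had 4.23, 3.12 and 3.73 in OVX glands, against 5.30, 5.68 and 4.98 in Cont glands. The OVX mean lay below the lower quartile and the groups were well apart. The log2 change was −1.63 (limma adjusted p = 0.00488), at least 2.60-fold lower in OVX glands when dim arrays are set to their lower quartiles, and it passed with any array left out. Of 12 epoxide hydrolases and eicosanoid enzymes 1 rose (called of all genes: 3.63%). Alox12, an arachidonic acid lipoxygenase, had 6.91, 7.04 and 7.17 in OVX glands, against 6.48, 6.42 and 6.50 in Cont glands, without overlap. Its change of 0.58 (limma adjusted p = 0.0391) did not pass whichever array was left out, with adjusted p of 0.0760 to 0.157. With the per-gene test of the study's methods none of the 6 partner genes called here, Rxrg included, passed after adjustment (adjusted p = 0.105 to 0.226).

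**Figure D5:**
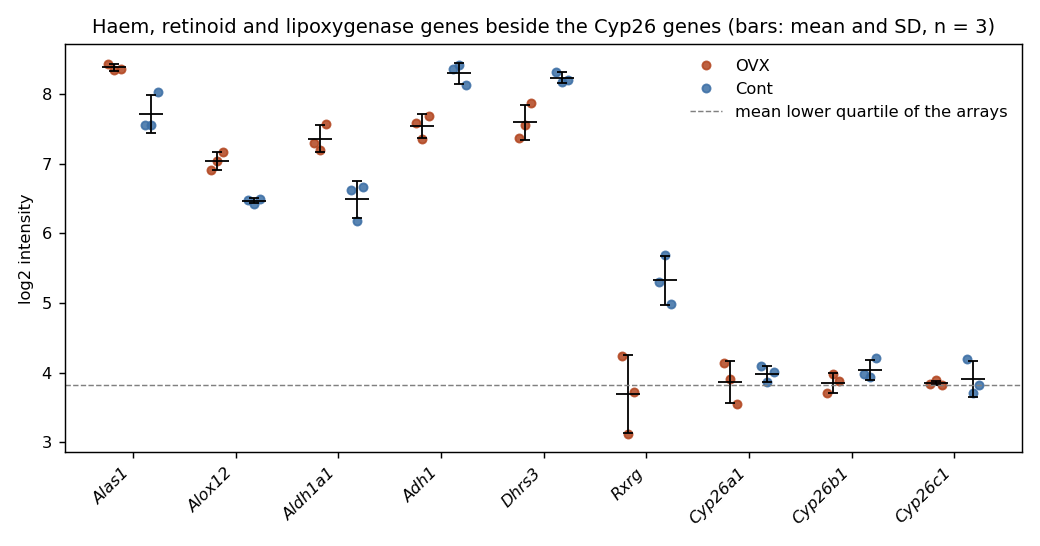
Log2 intensity of 6 genes around the P450 enzymes and of the 3 Cyp26 genes on each array, with OVX arrays (red) left of Cont arrays (blue), bars for the mean and SD (n = 3) and a dashed line at the mean lower quartile. The groups separate for the first 6 genes and overlap for the Cyp26 genes.

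Further P450 genes have symbols outside the naming pattern. Cyp51, which demethylates lanosterol on the way to cholesterol, had 5.67, 5.58 and 5.80 in OVX glands, against 5.09, 4.84 and 5.28 in Cont glands. Its OVX arrays all lay higher, with a change of 0.61 that narrowly missed the threshold (limma adjusted p = 0.0514). Ptgis, the prostacyclin synthase gene, had a change of −0.27 and Tbxas1, the thromboxane synthase gene, of 0.32, and neither passed (limma adjusted p = 0.407 and 0.485).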

How the data were processed

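Whole submandibular gland RNA of 3 OVX and 3 Cont mice was hybridised to Clariom S mouse arrays, 1 per mouse, with group and replicate taken from the sample labels. Per the paper's methods the authors used SST-RMA to normalize all arrays jointly, and they deposited log2 intensities. RMA and Affymetrix Power Tools are the tools in the submitters' notes on processing. The sources used here name no versions and no genome build. Of 22206 probe sets, with 0 missing values, 19572 have 1 symbol in the platform annotation and 0 have several. The 2634 without a symbol were left out. The probe set with the highest mean was kept for each of 19505 genes. All 97 P450 genes were matched to RefSeq by Entrez ID, with 0 symbols updated.

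The groups were compared by limma 3.58.1 under R 4.3.3 (lmFit, eBayes, no covariate), with Benjamini-Hochberg adjustment over all named probe sets. The step was tested on simulated data. The 6 arrays come from separate mice, and their number limits the precision. The members, the 7 lists of partner genes and 13 lists of cell markers were chosen with earlier results of these data known. Genes were named if they passed the adjusted p, if their groups did not overlap at an unadjusted p under 0.05, if they were among the 10 highest means, the smallest p of a role or the 2 next to the threshold, or if they belonged to the sterol, steroid, vitamin D or retinoic acid roles. Of each partner list the genes that passed were named, or the 2 with the smallest p, with Cyp2b10 for comparison. Promoter windows are the 250 bases before a RefSeq start.

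The alternatives were quantile normalization, median centring, leaving out the dimmest 30% of probe sets, eBayes with trend and robust set, array weights, a replicate block, each array left out, the methods' t-test in equal-variance and Welch forms, unnamed probe sets included, probe sets averaged per gene, a fold of at least 2, and a level split on all arrays.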

Additional observations from a re-analysis of the deposited data

How the results depend on the processing

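The count of 3 P450 genes past the adjusted p stayed at 3 after quantile normalization, median centring, trend and robust options, array weights, all probe sets and the mean over probe sets. It was also 3 without the dimmest 30% of probe sets, where only 29 P450 genes were tested, Cyp1b1 dropped out and Cyp2b9 passed. Leaving out an array gave 2 to 3, and over all genes 382 to 561 calls against 709. The methods' t-test gave 0 P450 genes, as did the Welch form, after adjustment (79 and 7 of all genes) and 10 each at an unadjusted p under 0.05. The 6 partner genes named as passing, Rxrg among them, did not pass under either form, with adjusted p of 0.105 to 0.458. Trend and robust options gave 1104 calls over all genes. At the study's criterion the count of 5 became 4 to 6 with an array left out and 2 at a fold of at least 2. A split by level on all arrays left 31 P450 genes above the lower quartile in place of 47.

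Replicate numbers did not pair the samples: the deviations of same-numbered arrays from their group means correlated at 0.067, 0.012 and −0.038, and 1 of 3 numbers correlated best with itself. With the replicate block 4 P450 genes passed, Cyp2b9 being added (adjusted p = 0.0464), and 630 of all genes.

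The direction turned for some genes that did not pass, at main changes of −0.31 for Cyp7b1 and −0.12 for Cyp26a1 and closer to 0 for the others. After quantile normalization Cyp2d13 was at −0.0204. With an array left out, the changes ran from −0.255 to 0.0391 for Cyp26a1, −0.158 to 0.0878 for Cyp26c1, −0.536 to 0.0237 for Cyp7b1 and −0.218 to 0.0768 for Cyp8b1. They ran from −0.135 to 0.0240 for Cyp2s1, −0.00566 to 0.222 for Cyp4f13 and −0.0570 to 0.0997 for Tspo. Of all values followed across settings 649 kept their direction and side of the threshold, 53 fell below it, 2 passed it and 11 turned. The 50 P450 genes under the lower quartile are those for which these arrays limit most what can be seen, since an intensity near background gives only a bound on a change.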
